A study of Equus caballus with 12 samples.

Results

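Horse oocytes that were vitrified after in vitro maturation (VMAT) were compared with fresh in vitro matured oocytes (FR) over the genes whose mRNA was well measured in every library. A gene was taken as well measured when its normalized count reached 10 in all 8 libraries of both groups. This held for 1292 of the 8305 genes tested in this contrast and of the 11425 genes in the table. The 3 VMAT libraries came from oocytes of Equus caballus that were matured in vitro, denuded of their cumulus cells, checked for a polar body and vitrified. After warming, these oocytes were kept in maturation medium for a further period and then frozen for RNA extraction. The 5 FR libraries came from oocytes matured in vitro, denuded and checked for a polar body in the same way, without vitrification or warming. The FR oocytes were kept in maturation medium for the same further period before freezing. Each library was made from a pool of 23 oocytes on average, with a kit that reads the 3′ end of each transcript and counts molecular identifiers. According to the paper, the stored oocytes were mature and had an intact membrane. The values are scaled within each library, so RNA per oocyte and the number of oocytes cannot be read from them. The 4 libraries of oocytes vitrified before maturation were not part of the contrast, and only oocytes that had reached the polar body stage entered any pool.

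A mature oocyte is arrested in metaphase of the second meiotic division, with its chromosomes held on a barrel-shaped spindle and its cortex loaded with granules that are released at fertilization. It makes almost no new RNA, so the mRNA it holds was stored during growth and is read out, deadenylated or degraded until the embryo starts transcription of its own. Vitrification takes such a cell to a glass-like solid in concentrated cryoprotectant. It exposes the spindle, the actin cortex, the membrane and the calcium stores to cold and to osmotic change, and the genes described here are grouped by these structures.

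The VMAT libraries were unequal in depth. Their recovered reads on genes came to 1636620, 12166950 and 2447215 in replicates 1, 2 and 3, and those of the FR libraries ranged from 2740837 to 4715119. VMAT replicate 2 thus held 7.43 times the reads of VMAT replicate 1. The same normalized count of 10 stood for 4 reads in VMAT replicate 1, 80 in VMAT replicate 2, 9 in VMAT replicate 3 and 9 to 20 in the FR libraries. Among the 1292 genes, 242 rested on fewer than 30 reads in VMAT replicate 1, 85 in VMAT replicate 3 and 0 in VMAT replicate 2. After the deposited scaling the column totals still differed 3.34-fold between VMAT replicates 1 and 2, against 1.32-fold between the highest and lowest FR libraries. The median normalized count of the well measured genes was 1341 in VMAT replicate 1, 456 in VMAT replicate 2, 854 in VMAT replicate 3 and 687 to 861 in FR. The main counts and the groups' overlap were therefore also read with every column set to the same total.

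**Figure D1:**
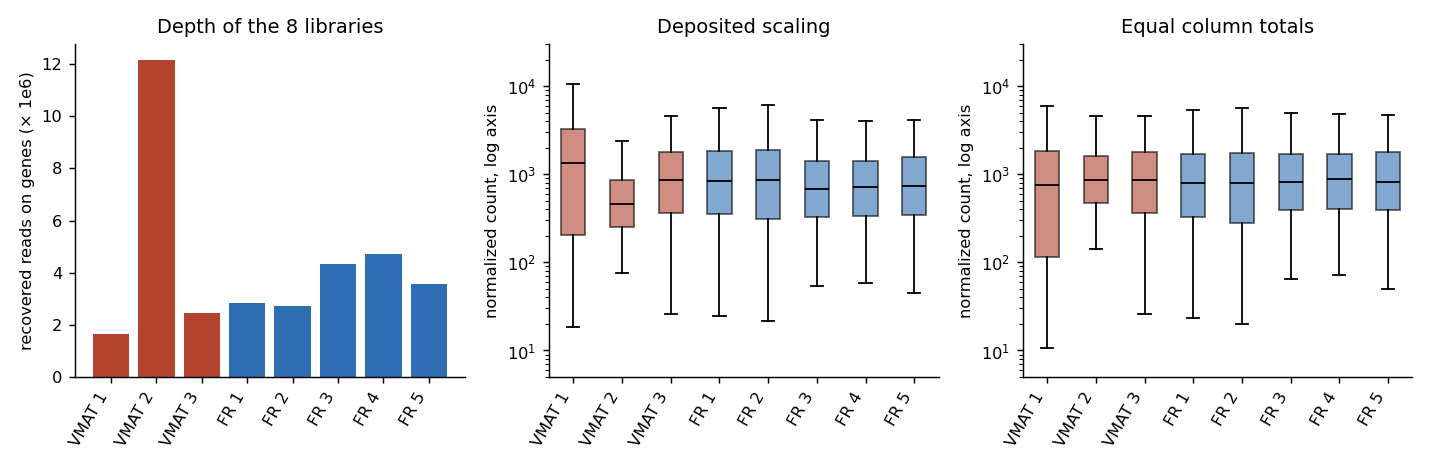
Left, recovered reads on genes (in units of 1e6) for each of the 3 VMAT (red) and 5 FR (blue) libraries. Middle and right, normalized counts of the 1292 well measured genes on a log axis under the deposited scaling and with equal column totals, as boxes over the quartiles with the median as a line and whiskers from the 5th to the 95th percentile. VMAT replicates 1 and 2 had the highest and the lowest median under the deposited scaling, and the lower whisker of VMAT replicate 1 stayed below that of every other library at equal totals.

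As a group, the well measured genes took a similar share of the reads in both groups. For VMAT the share was 73.5% ± 4.69 (SD, n = 3) and for FR it was 73.9% ± 1.76 (SD, n = 5, exact two-sided permutation test over 56 splits, p = 0.875, 6 measures compared, adjusted p = 0.964). Their median difference between the groups was 0.00 on the log2 scale, with 649 genes (50.2%, against 50.3% of all genes tested) higher and 643 lower in VMAT. At equal totals the median was -0.06, with 610 higher and 682 lower. A difference of at least 1 on the log2 scale is a doubling or a halving of value + 1. It was seen for 29.1% of the well measured genes and for 55.9% of all genes tested. The minimum of 10 leaves out genes with values near 0 in any library, so a smaller share was built into the rule. Over the log2 values of the 1292 genes, which all libraries share, the correlation between 2 libraries had a median of 0.559 for the 10 FR pairs, 0.492 for the 3 VMAT pairs and 0.527 for the 15 pairs across groups. The FR pairs ran from 0.462 to 0.637, the VMAT pairs from 0.426 to 0.625 and the pairs across groups from 0.451 to 0.747. The highest were those of VMAT replicate 2, the deepest library, with FR replicates 4 (0.747), 3 (0.716) and 5 (0.682).

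No well measured gene passed the test. With limma on log2(normalized count + 1), adjusted over all 8305 genes, 0 of 1292 genes were called at an adjusted p of at most 0.05 and a difference of at least 1, where the background over all genes tested was 0%. The smallest adjusted p from limma was 0.95. At an unadjusted p under 0.05, limma gave 33 well measured genes, or 2.55%, against 3.62% of all genes tested. Of these 33 genes, 28 were lower and 5 were higher in VMAT, or 2.17% and 0.387% of the well measured genes. Over all genes tested the balance was the other way, with 1.22% lower and 2.41% higher. The balance among the well measured genes was not stable, with 38 lower and 38 higher without VMAT replicate 2, 46 and 2 without VMAT replicate 1, and 37 and 0 without VMAT replicate 3. At equal totals limma gave 39 lower and 9 higher well measured genes at an unadjusted p under 0.05, or 3.72% against 3.42% of all genes tested. edgeR on the recovered reads called 0 well measured genes and 0.012% of all genes, and at an unadjusted p under 0.05 it gave 24 (1.86%) against 13.6%. DESeq2 called 1 well measured gene (0.0774%) against 4.26% of all genes, and gave 20 (1.55%) against 10.8% at an unadjusted p under 0.05. limma voom called 5 (0.387%) against 0.241%, and gave 77 (5.96%) against 6.84% at an unadjusted p under 0.05. Since the rule leaves out genes near 0 in any library, the well measured genes and all genes tested are not like for like.

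The genes with lower values had few reads behind them in the shallowest library. Of the 28 lower genes at an unadjusted p under 0.05 in limma, 20 had fewer than 30 reads in VMAT replicate 1 and 9 had fewer than 30 in VMAT replicate 3. VMAT replicate 1 was the lowest of the VMAT libraries for 16 of them, VMAT replicate 3 for 12 and VMAT replicate 2 for 0. Among the 242 genes under 30 reads in VMAT replicate 1, 212 were lower in VMAT. Among the other 1050 genes, 431 were lower. This split was made on VMAT values that enter the difference, so its lean was fixed in advance and it supports no conclusion. When 30 reads were asked of a gene in each of the 8 libraries, 893 genes qualified, 892 of them among the 1292, and 7 had an unadjusted p under 0.05 in limma, 5 of them lower and 2 higher. This minimum removed mostly genes with low values in VMAT replicate 1, so it too bears on the direction of the genes that remain. The part of sampling in these differences was not tested.

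**Figure D2:**
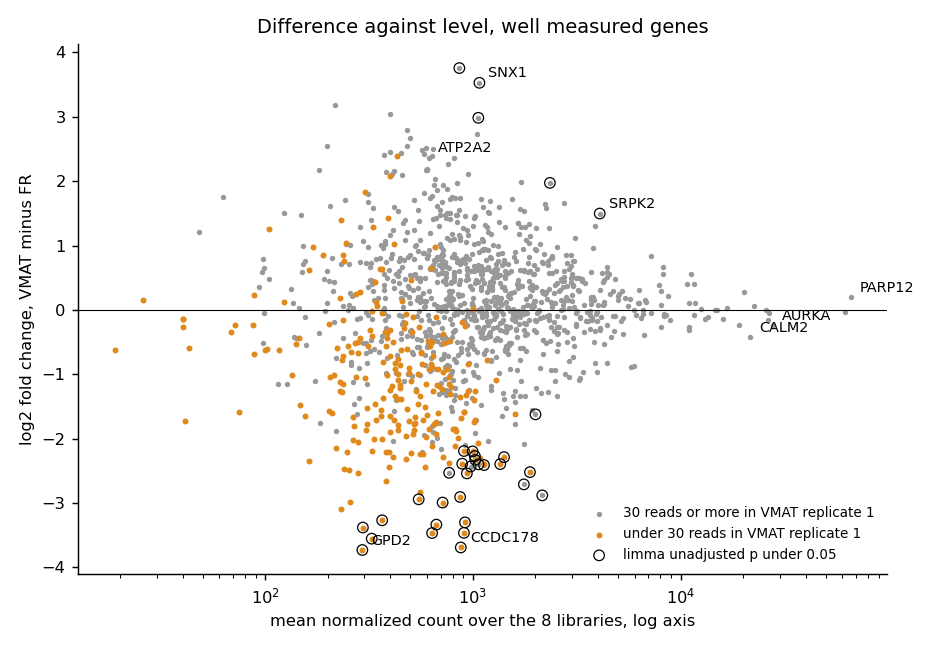
Log2 fold change of VMAT over FR against the mean normalized count over the 8 libraries, on a log axis, for the 1292 well measured genes. Orange points are the 242 genes with fewer than 30 reads in VMAT replicate 1, and black circles are the 33 genes with an unadjusted limma p under 0.05. Most circled genes lie below 0 and 20 of the 28 circled points below 0 are orange, whereas the points close in on 0 towards the right, where PARP12, AURKA and CALM2 lie.

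The 12 lower genes with the smallest p, all of which had a symbol, were CCDC178, LBR, NSD2, PBRM1, CACUL1, GPD2, KIF23, MYO5A, PRMT1, ENTR1, BNIP3L and TM9SF4. They are given as a description, since none was called. CCDC178, which encodes a coiled-coil protein, had normalized counts of 15.6, 167 and 308 in VMAT replicates 1 to 3 and of 1189, 2122, 958, 1441 and 794 in FR replicates 1 to 5. In VMAT the mean was 163 ± 146 (SD, n = 3), against 1301 ± 520 (SD, n = 5) in FR. The log2 difference was -3.69 (SE 1.18, limma adjusted p = 0.95). Every VMAT library lay below every FR library, and the lowest value stood for 5 reads. In all, the groups did not overlap for 33 well measured genes, or 2.55%, against 3.19% of all genes tested. Of these, 27 were lower (2.09%, against 1.23% of all genes) and 6 higher (0.464%, against 1.96%) in VMAT. At equal totals there were 41 (3.17%, against 2.71%), of which 20 were lower (1.55%, against 0.819%) and 21 higher (1.63%, against 1.89%), so the balance of directions depended on the scaling.

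Genes of the nucleus made up several of the others. LBR, the lamin B receptor of the inner nuclear membrane, stood at 52.9, 363 and 108 in VMAT and at 602, 1812, 1654, 1576 and 1158 in FR (log2 difference -3.30, SE 1.10). The groups did not overlap as deposited but did at equal totals, and the lowest VMAT value was 17 reads. NSD2, a methyltransferase for lysine 36 of histone H3, stood at 37.3, 287 and 36.6 in VMAT and at 1777, 1286, 681, 480 and 505 in FR (-3.47, SE 1.27). Here the deepest VMAT library also lay under all 5 FR libraries. PRMT1, the main arginine methyltransferase of histones and RNA-binding proteins, had 106, 599 and 216 in VMAT and 812, 4071, 735, 1675 and 831 in FR (-2.41, SE 1.04), apart as deposited and overlapping at equal totals. PBRM1, a bromodomain subunit of a SWI/SNF remodelling complex, had 1543, 874 and 25.9 in VMAT and 1707, 2991, 2817, 1103 and 3013 in FR (-2.71, SE 1.03). Its VMAT replicate 1 fell within the FR range, so the difference rested mostly on VMAT replicate 3.

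Mitochondrial and trafficking genes were also on this list. GPD2, the mitochondrial glycerol-3-phosphate dehydrogenase, stood at 15.6, 125 and 14.1 in VMAT and at 437, 491, 373, 251 and 643 in FR (-3.73, SE 1.52). It had the lowest fitted difference of the 1292 genes, and all VMAT libraries were below all FR libraries. BNIP3L, a receptor for mitophagy on the outer mitochondrial membrane, stood at 355, 575 and 55.4 in VMAT and at 1523, 1498, 433, 1362 and 1998 in FR (-2.43, SE 1.07). FR replicate 3 overlapped the VMAT range. TM9SF4, a membrane protein of the endosomal and Golgi pathway, stood at 12.4, 178 and 27.1 in VMAT and at 538, 436, 321, 440 and 410 in FR (-3.38, SE 1.49), again with no overlap but with 4 reads in VMAT replicate 1. MYO5A, the myosin that carries vesicles along actin, stood at 24.9, 285 and 192 in VMAT and at 3905, 264, 702, 958 and 612 in FR (-2.91, SE 1.25). Its highest VMAT value and lowest FR value were close to each other. ENTR1, an endosomal trafficking protein, had 46.7, 327 and 1703 in VMAT and 923 to 3186 in FR (-2.40, SE 1.04), with VMAT replicate 3 inside the FR range.

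The remaining pair belongs to cell division. KIF23, the kinesin of the centralspindlin complex that acts in cytokinesis and polar body extrusion, had 3890, 463 and 10.6 in VMAT and 602, 5525, 1488, 2772 and 2505 in FR (-2.88, SE 1.19). Its values spanned 521-fold, the widest range of the 1292 genes, and VMAT replicate 1 was the second highest of all libraries. CACUL1, a cullin-domain protein that binds CDK2, had 37.3, 1030 and 11.8 in VMAT and 516 to 1321 in FR (-3.33, SE 1.35). VMAT replicate 2, with the most reads, lay among the FR libraries.

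**Figure D3:**
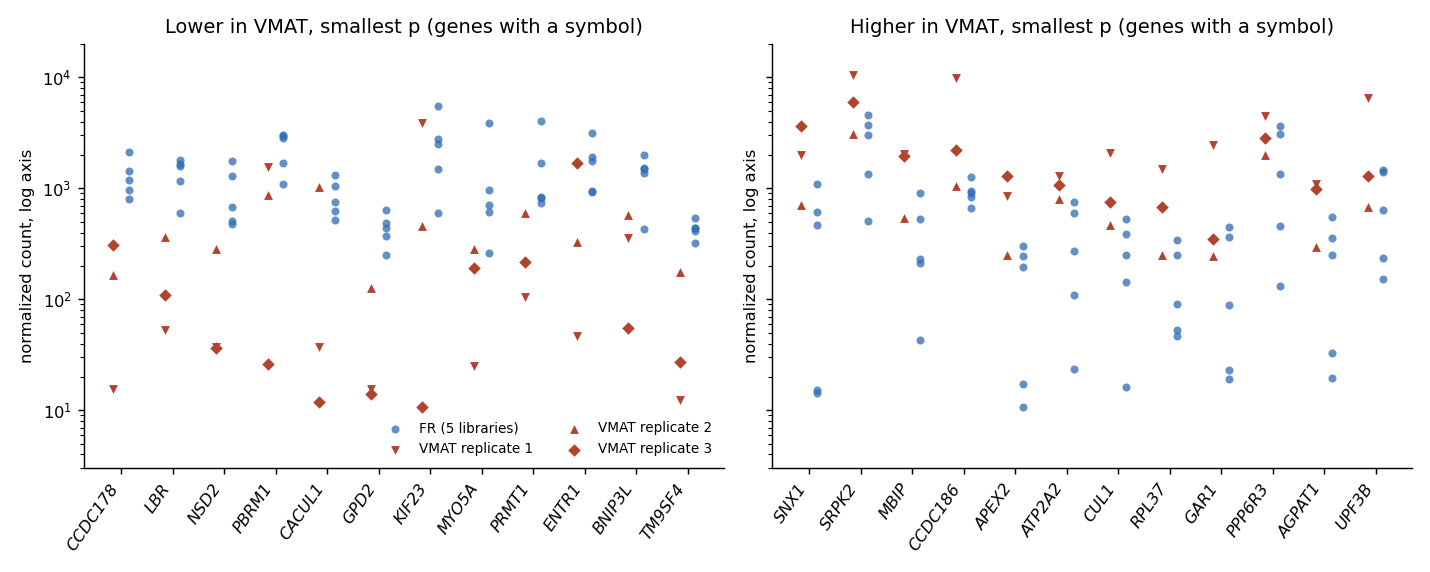
Normalized counts, on a log axis, of the 12 lower (left) and 12 higher (right) well measured genes with a symbol and the smallest limma p. Blue points are the 5 FR libraries, and red symbols are VMAT replicates 1 (triangle down), 2 (triangle up) and 3 (diamond). On the left the low VMAT points are mostly replicates 1 and 3. On the right the FR libraries spread widely for several genes, as for SNX1 and ATP2A2, whereas for CCDC186 the VMAT libraries spread more.

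On the higher side fewer genes had a small p. Among genes with a symbol, the 12 with the smallest p were SNX1, SRPK2, MBIP, CCDC186, APEX2, ATP2A2, CUL1, RPL37, GAR1, PPP6R3, AGPAT1 and UPF3B, and of these SNX1 and SRPK2 had an unadjusted limma p under 0.05, with the remaining 3 of the 5 having no symbol here. Further genes without a symbol also had a smaller p than several of these 12. SNX1, a sorting nexin of the retromer that retrieves cargo from endosomes, stood at 2007, 711 and 3671 in VMAT and at 1106, 607, 15.1, 467 and 14.3 in FR. Over the VMAT libraries the mean was 2130 ± 1484 (SD, n = 3), and over FR it was 442 ± 457 (SD, n = 5). The log2 difference was 3.53 (SE 1.40, limma adjusted p = 0.95). FR replicates 3 and 5 were far under the other FR libraries, and FR replicate 1 overlapped the VMAT range. SRPK2, a kinase of SR splicing factors, stood at 10462, 3058 and 5951 in VMAT and at 1344, 508, 4573, 3038 and 3701 in FR (1.50, SE 0.71). At equal totals its VMAT values became 5921, 5785 and 5944 and its FR values ran from 467 to 5436, so the groups separated by a narrow margin.

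ATP2A2, the SERCA pump that refills the calcium store of the endoplasmic reticulum, stood at 1282, 809 and 1075 in VMAT and at 23.7, 270, 750, 596 and 110 in FR. These are means of 1055 ± 237 (SD, n = 3) for VMAT and 350 ± 313 (SD, n = 5) for FR. The log2 difference was 2.37 with a 95% interval of -0.23 to 4.96 (limma adjusted p = 0.95). Each VMAT library was above each FR library under the deposited scaling, but at equal totals the groups overlapped. CUL1, the scaffold of SCF ubiquitin ligases, had 2094, 463 and 749 in VMAT and 391, 251, 16.2, 143 and 533 in FR (2.43, SE 1.34). APEX2, a DNA repair endonuclease, had 853, 253 and 1292 in VMAT and 10.8, 17.2, 247, 197 and 304 in FR (2.97 at equal totals, 3.04 as deposited). In APEX2 the spread came mainly from FR replicates 1 and 2, with counts near 10. In CUL1 only FR replicate 3 was low, at 16.2, and the VMAT values ran from 463 to 2094. In both genes the groups were apart at equal totals alone.

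VMAT replicate 1 was the highest of the 8 libraries for 10 of these 12 genes, all but SNX1 and APEX2, and for 5 of them at equal totals. CCDC186 had 9914, 1047 and 2208 in VMAT and 669 to 1279 in FR (1.65, SE 0.84), and VMAT replicate 2 lay within FR. MBIP, a subunit of the ATAC acetyltransferase complex, had 2048, 544 and 1955 in VMAT and 43 to 906 in FR (2.35, SE 1.19). UPF3B, a factor of nonsense-mediated decay, had 6485, 683 and 1305 in VMAT and 153 to 1452 in FR (1.72, SE 1.03). CCDC186 and UPF3B had values there that were several times those of the other VMAT libraries. The remaining differences were 2.67 for GAR1 (SE 1.55), 1.58 for PPP6R3 (SE 0.92), 2.43 for AGPAT1 (SE 1.44) and 2.46 for RPL37 (SE 1.42). The 95% interval included 0 for 10 of the 12 genes, all but SNX1 and SRPK2. RPL37 is a ribosomal protein gene of a family with many near-identical copies, so its count is uncertain.

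A few genes with ample reads in VMAT replicate 1 lay apart from FR. They were chosen after their values were seen and are given without a test. POLR1F, a subunit of RNA polymerase I, stood at 675, 686 and 706 in VMAT, a mean of 689 ± 15.7 (SD, n = 3), and at 2375, 2076, 1841, 1540 and 1364 in FR, a mean of 1839 ± 406 (SD, n = 5). Its evenness within VMAT held under the deposited scaling only, since at equal totals its VMAT values were 382, 1298 and 705. They still lay under its lowest FR value of 1535, and VMAT replicate 1 held 217 reads. ZMYND11, a reader of methylated histone H3.3, stood at 1282, 836 and 1615 in VMAT and at 2607, 3314, 2898, 3331 and 2527 in FR (log2 difference -1.28). AMD1, which makes decarboxylated S-adenosylmethionine for polyamine synthesis, stood at 5480, 2949 and 3587 in VMAT and at 7627, 8848, 5757, 8182 and 5545 in FR (-0.87). For both the groups stayed apart at equal totals, and AMD1 had 1761 reads in VMAT replicate 1. TCEA1, a transcription elongation factor, stood at 1441, 1366 and 1463 in VMAT and at 1885 to 5216 in FR, but at equal totals its VMAT values were 815, 2583 and 1462 and overlapped FR.

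The calls of the other tools fell on different kinds of genes. DESeq2 called ENSECAG00000011080, a gene with no symbol here, at values of 10.6 to 56 in VMAT and 264, 753, 115, 1316 and 69.4 in FR (adjusted p = 0.0455, log2 difference -3.55 in limma). limma voom called LIMCH1, UBQLN1, TOP1, ENSECAG00000026942 and ING3 as lower, although limma on the deposited scale put all of them within 0.39 of 0. TOP1, DNA topoisomerase I, stood at 30487, 2083 and 3251 in VMAT and at 7353, 10248, 6481, 8637 and 2893 in FR. Its VMAT replicate 1 was the highest and its VMAT replicate 2 the lowest of the 8 libraries, and its log2 difference was -1.10 in voom, -0.15 in limma and 0.76 in DESeq2. UBQLN1, a shuttle factor of the proteasome, also differed in sign between voom (-1.06) and DESeq2 (0.55).

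The summed counts of oocyte markers overlapped between the groups, whereas some single markers were near 0 in some libraries. Of 14 oocyte markers on the list, 8 could be paired with an identifier and 6 were well measured. The 8 markers summed to 13247, 7529 and 15420 in VMAT and to 9290 to 13619 in FR. BTG4, which brings the CCR4-NOT deadenylase to maternal mRNA, stood at 6958, 3818 and 7486 in VMAT and at 8872, 4850, 8750, 6450 and 4324 in FR. This is a mean of 6087 ± 1983 (SD, n = 3) against 6649 ± 2124 (SD, n = 5), and the 95% interval of its log2 difference ran from -1.15 to 0.90. GDF9, the growth factor that the oocyte secretes to its cumulus cells, stood at 4413, 1877 and 2640 in VMAT and at 1287 to 1918 in FR (0.73, SE 0.71), and its partner BMP15 at 576, 282 and 1220 against 149 to 879 (0.86, SE 1.19). ZP4 of the zona pellucida was at 115, 551 and 1918 against 377 to 1847 (-0.83, SE 1.06). The oocyte linker histone H1-8 was at 619, 527 and 956 against 661 to 1423 (-0.61, SE 0.92). ZP2, a second zona protein gene, missed the minimum of 10, with 12.4, 238 and 784 in VMAT and 161, 9.15, 574, 977 and 640 in FR. ZAR1, a maternal effect gene that also missed it, was at 3.11, 33.4 and 8.25 in VMAT and at 115 to 252 in FR. Its value in VMAT replicate 1 was 1 read. Every VMAT library, including replicate 2 with the most reads, lay below every FR library as deposited. The same held for 1.23% of all genes tested. For other cell types the check was narrow. Of 16 cumulus markers only HAS2, the hyaluronan synthase of the expanding cumulus, could be paired, at 1755, 451 and 254 in VMAT and 462 to 1239 in FR. Of 6 stromal and endothelial markers only PECAM1 could, at 1450, 397 and 82.5 in VMAT and 8.01 to 892 in FR, and of 5 blood markers none could. Their part in the differences was not tested.

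Grouped by function, no list had a called gene. The lists of metaphase arrest and spindle genes hold what keeps the mature oocyte in its arrest. Among 9 well measured genes of metaphase II arrest and M phase, 3 were higher and 6 lower in VMAT, with a median log2 difference of -0.23. CDC25C, the phosphatase that activates CDK1, was at 168, 308 and 1005 in VMAT and 493 to 1823 in FR (-1.31, SE 1.03). WEE2, the oocyte kinase that inhibits CDK1, was at 551, 202 and 407 against 23.6 to 431 (1.07, SE 1.42). Among 29 spindle, kinetochore and cohesin genes, 16 were higher and 13 lower with a median of 0.13, and 4 had an unadjusted limma p under 0.05, all of them lower, where 2.17% of the well measured genes and 1.22% of all genes tested were lower at that p. Beside KIF23, these included SMC3, a core subunit of cohesin, at 392, 207 and 37.7 in VMAT and 2788, 391, 456, 965 and 910 in FR (-2.53, SE 1.19). They also included SGO1, the shugoshin that guards centromeric cohesin (-2.39, SE 1.16), and KIF18A, the kinesin that limits chromosome oscillation, at 457, 1145 and 1066 against 1574, 3982, 2371, 3207 and 2208 (-1.62, SE 0.77). SGO1 and KIF18A were named after their values were seen. KIF18A did not overlap between groups as deposited and did at equal totals. On the higher side, NUMA1 of the spindle poles had a difference of 1.60 (SE 1.44) and the microtubule depolymerase KIF2C one of 1.31 (SE 1.26), both with intervals that included 0.

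The cortex, calcium and transport lists were divided. Of 16 actin cytoskeleton genes, 9 were higher and 7 lower, with a median of 0.20. ECT2, the exchange factor that activates RhoA at the cleavage furrow, was at 37.3, 1185 and 657 in VMAT and 628 to 3879 in FR (-2.29, SE 1.07). RHOA itself was at 43.6, 637 and 1667 in VMAT and at 19.4, 11.4, 612, 438 and 22.2 in FR (2.39, SE 1.77). Its values fell into a low and a high set within both groups. Calcium handling had 4 higher and 4 lower genes with a median of -0.01. Beside ATP2A2, the calmodulin gene CALM2 had 26572, 8381 and 17655 in VMAT and 11058 to 49590 in FR, and its interval of -1.25 to 0.40 was one of the narrower ones. In limma voom CALM2 was lower in VMAT (-0.83, voom adjusted p = 9.0e-12), under the difference of 1 asked of a call. At equal totals its VMAT values were 15038, 15852 and 17634, inside the FR range of 10166 to 46778. An exact two-sided permutation test under the deposited scaling gave p = 0.518 for CALM2. The small voom p was thus not matched by a separation of the libraries. In edgeR the adjusted p of CALM2 was 0.362. Of 7 water, osmolyte and ion transport genes, 6 were higher and 1 lower with a median of 0.39. ATP1B1, the beta subunit of the sodium pump, was at 7496, 1249 and 1971 in VMAT and 1098 to 3438 in FR (0.60, SE 0.75), and the potassium channel KCNK1 at 3034, 660 and 805 against 222 to 2145 (0.94, SE 1.03). In both genes VMAT replicate 1 was the highest library. The 4 well measured genes of cortical granule exocytosis had 1 higher and 3 lower, with a median of -1.36. Beside MYO5A, the syntaxin STX3 was at 149, 922 and 3251 in VMAT and 1580 to 3074 in FR (-1.33, SE 0.89).

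Lists of protein turnover and folding were mixed. Of 12 ubiquitin and conjugating enzyme genes, 7 were higher and 5 lower with a median of 0.38. UBE2E3 was at 31.1, 313 and 557 in VMAT and 382 to 2456 in FR (-2.54, SE 1.16), while UBE2N was at 918, 240 and 557 against 12.6 to 715 (2.11, SE 1.57). The 8 proteasome genes had 3 higher and 5 lower with a median of -0.13, and PSMA5 of the core particle was at 2493, 1736 and 3438 in VMAT and 77.6, 1819, 1381, 1047 and 2071 in FR (1.54, SE 0.95). Its difference drew on FR replicate 1, the only library far under the others. Of 17 chaperone, heat shock and cold shock genes, 9 were higher and 8 lower with a median of 0.46. The co-chaperone gene PTGES3 was at 470, 969 and 3469 in VMAT and 181 to 800 in FR (1.74, SE 1.11), and DNAJC8 at 7481, 1341 and 2936 against 808 to 2000 (1.27, SE 0.77). On the other side, HSPE1, the mitochondrial co-chaperonin, was at 18.7, 379 and 409 in VMAT and 300 to 774 in FR (-1.79, SE 1.32), and P4HB, protein disulfide isomerase, at 96.5, 1191 and 2582 against 1487 to 2321 (-1.33, SE 0.94). Both of these had their lowest value in VMAT replicate 1.

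Members of the lists were found by symbol, and well measured genes with a symbol had more lower than higher values in all (554 against 478). The lists tied to stored mRNA and chromatin also had more lower than higher members, although without VMAT replicate 2 their medians turned to 0.17 and 0.06. Of 13 genes of maternal mRNA storage, translation and decay, 4 were higher and 9 lower with a median of -0.02. The oocyte cap-binding protein gene EIF4E1B was at 49.8, 775 and 1197 in VMAT and 1590, 1513, 1425, 837 and 795 in FR (-1.71, SE 1.05). PABPC4, a poly(A)-binding protein gene, was at 168, 354 and 49.5 against 737, 61.8, 1496, 1068 and 704 (-1.94, SE 1.32). Of 18 chromatin and DNA methylation genes, 6 were higher and 12 lower with a median of -0.18. EHMT1, a methyltransferase for lysine 9 of histone H3, was at 12.4, 456 and 213 in VMAT and 94.6 to 1217 in FR (-2.22, SE 1.40). The maintenance methyltransferase DNMT1 was at 1229, 1444 and 2773 against 1321 to 6272 (-0.80, SE 0.71). Its recruiting factor UHRF1 was at 1276, 1199 and 782 in VMAT and 1771, 1373, 1911, 1376 and 1774 in FR (-0.61, SE 0.80), apart as deposited and overlapping at equal totals. Of 10 zona pellucida and maternal effect genes, 3 were higher and 7 lower with a median of -0.34, with SALL4 at 80.9, 83.0 and 123 against 20.0 to 599 (-1.15, SE 1.57).

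The smaller lists added little. Of 12 cytosolic ribosomal protein genes, 7 were higher and 5 lower with a median of 0.09, and RPL13 was at 551, 422 and 686 in VMAT and 522 to 1336 in FR (-0.80, SE 0.96). Of 5 antioxidant genes, 3 were higher and 2 lower with a median of 0.13. PRDX2, a peroxiredoxin, was at 2595, 1631 and 3609 in VMAT and 409 to 3350 in FR (0.92, SE 0.81), and NFE2L2, the regulator of the oxidative stress response, at 68.5, 1050 and 811 against 345 to 1921 (-1.26, SE 1.09). The caspase inhibitor gene XIAP, 1 of the 2 apoptosis genes next to BNIP3L, was at 1786, 413 and 1079 in VMAT and 133 to 1444 in FR (1.10, SE 1.11). Oxidative phosphorylation had 2 well measured members, both higher.

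Of the 14 lists with at least 4 well measured members, 11 turned the sign of their median when VMAT replicate 1 or VMAT replicate 2 was left out. Without VMAT replicate 2 the median of all 1292 genes moved from 0.00 to 0.44, and without VMAT replicate 1 it moved to -0.26. The spindle list moved from 0.13 to -0.48 without VMAT replicate 1 and to 0.62 without VMAT replicate 2. The calcium list moved from -0.01 to -0.47 and to 0.41, and the water and ion transport list from 0.39 to -0.24 and to 0.90. The metaphase arrest list turned to 0.23 and to 0.15. The zona and maternal effect list, at -0.58 and -0.09, and the ubiquitin list, at 0.33 and 0.91, kept their sign without either library. The cortical granule list went to 0.12 without VMAT replicate 1, and the chaperone list to -0.02.

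**Figure D4:**
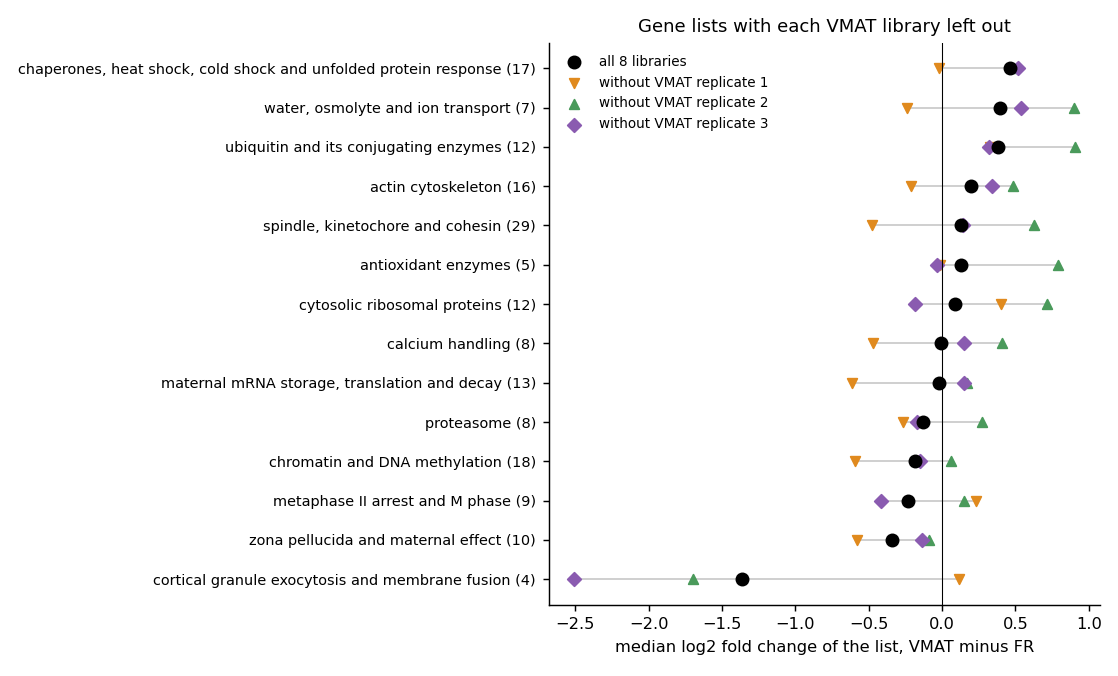
Median log2 fold change of VMAT over FR for each gene list with at least 4 well measured members, whose number is in parentheses. Black points are the medians over all 8 libraries, coloured symbols the medians with VMAT replicate 1, 2 or 3 left out, and grey lines join them. For 11 of the 14 lists the median moved to the left without VMAT replicate 1, and for 13 it moved to the right without VMAT replicate 2.

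The spread between libraries was wide, and limma drew the SE of each gene towards the spread of genes at a similar level. Between the highest and the lowest of the 8 libraries, a well measured gene differed 14.5-fold in the median, or 11.3-fold at equal totals, and 117 genes spanned more than 100-fold. The standard deviation of the log2 values had a median of 1.37 over the 3 VMAT libraries and 0.97 over the 5 FR libraries, and at equal totals these were 0.99 and 0.94. The range narrowed with the level. With the genes in 5 classes of equal size by mean level, from the lowest class to the highest, its median was 30.9, 28.5, 19.1, 8.67 and 6.20, and at equal totals 32.5, 31.8, 15.7, 6.25 and 3.45. The median absolute log2 difference between the groups was 0.78 in the lowest class and 0.30 in the highest. The 95% interval of the log2 difference, from the moderated SE, lay within -2 and 2 for 256 genes. It lay within -1 and 1 for 10 genes.

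The named genes with the highest means, chosen among genes with a symbol, were among the more even ones. PARP12, a mono-ADP-ribosyltransferase, stood at 115589, 29533 and 83906 in VMAT and at 89513, 55219, 56844, 44386 and 51157 in FR. The VMAT mean was 76342 ± 43524 (SD, n = 3) and the FR mean 59424 ± 17494 (SD, n = 5), a difference of 0.19 on the log2 scale with a 95% interval of -0.41 to 0.79. The spread within VMAT exceeded the difference. At equal totals its range over the 8 libraries was 1.66-fold. AURKA, the Aurora kinase of the meiotic spindle poles, stood at 41394, 9666 and 29050 in VMAT and at 14904 to 48388 in FR, with an interval of -1.01 to 0.54. PSMA7, a core subunit of the proteasome, stood at 27558, 15130 and 31943 in VMAT and at 18231 to 36316 in FR, with an interval of -0.81 to 0.51. ARMC10, a mitochondrial outer membrane protein, had 39554, 9926 and 25991 in VMAT and 17086 to 27647 in FR. At equal totals these became 22385, 18776 and 25961 in VMAT and 20310 to 25416 in FR, a range of 1.38-fold. CAST, the calpain inhibitor calpastatin, and GLUL, glutamine synthetase, had 95% intervals of -0.79 to 0.71 and -0.88 to 0.89. For these genes a difference of 1 or more in mean log2(value + 1) lay outside the limma interval, except for AURKA on the lower side. Their SEs were drawn towards those of genes at a similar level, so this rests only in part on their own libraries. In VMAT, CAST ran from 11311 to 58826 and GLUL from 7981 to 63590. limma voom put several of the genes with the highest means lower in VMAT at a small adjusted p. All were under the difference of 1 asked of a call. These were CAST (-0.56, voom adjusted p = 1.9e-11), GLUL (-0.69, 3.1e-09), AURKA (-0.64, 4.8e-08), PSMA7 (-0.39, 1.0e-06) and ARMC10 (-0.39, 2.6e-05). For each of them the groups overlapped, both as deposited and at equal totals. Exact two-sided permutation tests under the deposited scaling gave p = 0.946 for CAST, 0.982 for GLUL, 0.679 for AURKA, 0.696 for PSMA7 and 0.946 for ARMC10. The small voom p-values were thus not matched by a separation of the libraries. For PARP12 voom gave -0.22 (adjusted p = 0.19). With edgeR the smallest adjusted p of these genes was 0.387, for AURKA.

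**Figure D5:**
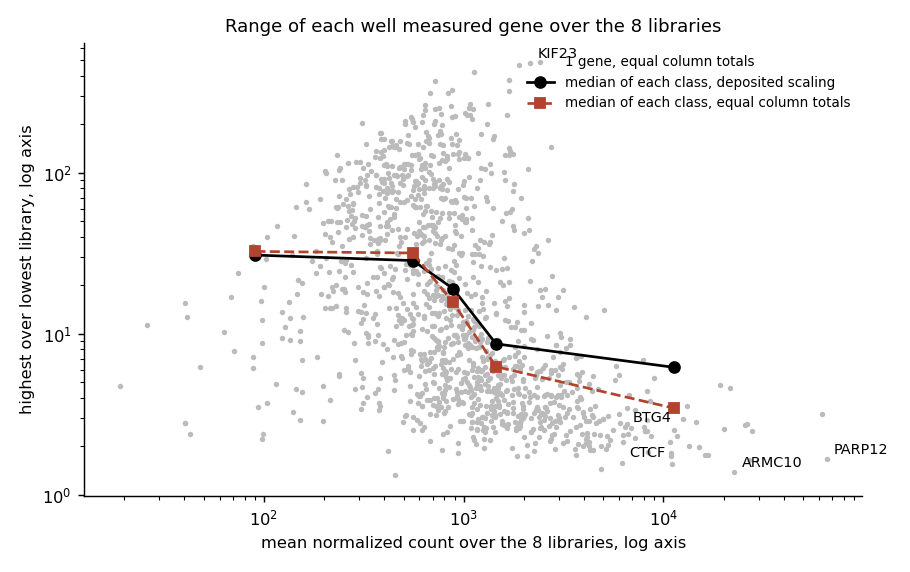
Ratio of the highest to the lowest of the 8 libraries for each well measured gene at equal column totals (grey points) against its mean normalized count, both on log axes. Lines join the medians of 5 equal classes of genes by mean level under the deposited scaling (black circles) and at equal totals (red squares), drawn at the middle of each class on the log scale. The medians descend from 30.9 to 6.20 and from 32.5 to 3.45, and ARMC10 and PARP12 lie near the bottom right.

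At the edge of the rule, CLTC, WBP4 and TMEM171 were just inside the minimum of 10, with lowest values of 10.3 in FR replicate 2 for CLTC and 10.0 in FR replicate 5 for the other two. PICALM, ADIPOR2 and CNBD1 were just outside, each with 9.70 in FR replicate 1. CNBD1 had 390 or more in the other 7 libraries, and CLTC, the clathrin heavy chain, 228 or more. TMEM171 and PICALM, in contrast, were low in several libraries, with TMEM171 at 18.7 or less in 4 of the 8.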

How the data were processed

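Pools of oocytes were sequenced with a 3′ kit with molecular identifiers. Per the labels and the study's methods, the authors trimmed reads with Trim Galore, aligned them to EquCab3.0 with STAR, collapsed identifiers with UMI-tools, quantified genes with RSEM and divided the counts by DESeq2 size factors. The authors left out a VMAT pool at the control of RNA amount and integrity, whereas every FR pool was kept. They removed a further VMAT sample before their test, for low RNA integrity, the lowest concentration and few reads. Neither is analysed here. The deposited values are therefore normalized counts per gene, a depth-scaled signal, and in each column 100% of them were whole multiples of 1 step (tolerance 1e-06 of a read), so reads were recovered. Nothing in the labels says that replicates came from separate collections of oocytes, so p-values measure only the spread between these samples, which may be technical. Counts cover 1636620 to 12166950 reads per library, and intervals rest on the spread between libraries, pooled in part over genes of similar level.

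Genes above 0 in at least 3 of the 8 libraries were tested with limma 3.58.1 (eBayes with trend, R 4.3.3) on log2(value + 1), which understates the change of low genes, with Benjamini-Hochberg adjustment over all 8305 genes. Intervals of 95% come from the same fit. Its SEs are moderated, so they can be wider or narrower than a gene's own spread gives. Single measures were compared by exact two-sided permutation over 56 splits, whose smallest p is 0.0179. Alternatives were edgeR 4.0.16 and DESeq2 1.42.0 on the recovered reads, limma voom, other pseudocounts (0.5 and 10), filters and scalings (equal column totals, quantile, thinning to 1636620 reads), all 12 samples in one fit, array weights, a replicate block and each library left out.

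Symbols came from the study's own pairing of identifiers and names, which covers 1032 of the 1292 genes. It is incomplete and leans to one side. Genes with a symbol had a median log2 difference of -0.06 and the 260 without one of 0.29. The files' fold changes and p-values made by the authors were not used. Named genes were, among genes with a symbol only, the 12 higher and 12 lower with the smallest p, the 6 with the highest mean, up to 2 in each direction in each of 16 gene lists, the cell type markers, and the 3 genes on each side of the minimum of 10. Genes outside this rule are said to be chosen after their values were seen. The members and lists were chosen with earlier results of these data known.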

Additional observations from a re-analysis of the deposited data

Results flagged for a closer look

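In the 5 FR libraries, 73 sets of values were searched for a single library set apart from the others by Dixon's criterion. They covered 69 of the genes named above, on the log2 scale, and depth measures as they are. Chance meets this criterion in about 1 of 20 sets. It was met in 5 sets, where chance would give 3.7. BNIP3L was at 433 in FR replicate 3 and at 1362 or more in the other FR libraries. NUMA1 was at 14 in FR replicate 1 against 196 to 496. PABPC4 was at 61.8 in FR replicate 2 against 704 or more, and PSMA5 at 77.6 in FR replicate 1 against 1047 or more. STX3 was at 3074 in FR replicate 4 against 1580 to 1854. The low FR value lies against the direction of the group difference for BNIP3L and PABPC4 and with it for NUMA1 and PSMA5. No depth measure of the FR libraries was set apart. The 3 VMAT libraries were not searched by this criterion.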

How the results depend on the processing

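The count of 0 called genes over all genes tested became 354 with DESeq2 on recovered reads, 20 with limma voom and 1 with edgeR. For well measured genes the count of 0 became 1 with DESeq2 and 5 with voom, and stayed at 0 in the other alternatives. The 33 well measured genes at an unadjusted p under 0.05 became 20 with DESeq2, 77 with voom, 14 when eBayes used no trend and 7 among genes with 30 reads in all libraries, and leaving out 1 library gave 22 to 76, the highest without VMAT replicate 2. Non-overlapping groups, 33 as deposited, were found for 41 to 168 genes with 1 library left out (116, 168 and 85 without VMAT replicates 1, 2 and 3, and 41 to 59 without an FR library), where fewer libraries make separation easier. The set of 1292 genes shrank to 697 at a minimum of 100 and grew to 1297 to 1406 with 1 library left out. Leaving out 1 library gave 0 called genes each time.

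Whether the replicate numbers pair the samples was not settled. Over all genes tested, the deviations of same-numbered VMAT and FR libraries from their group means correlated at 0.00, -0.03 and 0.01. Those of differently numbered libraries correlated at -0.03 to 0.05. With genes that vary this much between libraries, such values cannot show whether pools shared a collection. The paper states that FR and VMAT oocytes were matured together. With the replicate block, 11 well measured genes had an unadjusted p under 0.05, 5 of them lower and 6 higher, and 0 were called.

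The log2 difference was followed for 69 of the named genes, and 59 of these kept their sign in 15 alternatives and 8 fits with 1 library left out. Named genes outside the 69 were not counted, and some of them also turned sign. ARMC10 went from 0.062 to -0.39 and GLUL from 0.0046 to -0.69 with voom. CLTC went from 1.10 to -0.30 and WBP4 from 0.52 to -0.66 with edgeR. Among the 69, KIF2C (-0.00064) and PARP12 (-0.22) turned sign with voom and HAS2 with DESeq2 (0.044). With 1 library left out the differences ran from -2.31 to 0.059 for P4HB, -1.80 to 0.22 for ZP4, -0.15 to 1.14 for ATP1B1 and -0.21 to 0.77 for PARP12, which turned without VMAT replicate 1. They ran from -0.31 to 0.18 for BTG4, -0.80 to 0.030 for CALM2, -0.67 to 0.38 for AURKA and -0.36 to 0.17 for PSMA7, which turned without VMAT replicate 2, and from -1.13 to 0.26 for HAS2, which turned without VMAT replicate 3. The cause was not tested. VMAT replicate 1 limits low genes, where a normalized count of 1 read is 3.11.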

Other observations

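Among the 260 well measured genes without a symbol, ENSECAG00000017058 had the highest fitted difference of all 1292 genes. It stood at 2570, 546 and 2109 in VMAT and at 65.8, 26.3, 701, 853 and 11.5 in FR, a log2 difference of 3.76 (SE 1.46), and FR replicates 3 and 4 overlapped the VMAT range. DYNLL1, the dynein light chain, was chosen after its values were seen. It stood at 688, 472 and 463 in VMAT and at 428, 183, 215, 171 and 412 in FR, with no overlap under the deposited scaling and overlap at equal totals.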
